A study of Homo sapiens with 6 samples.

Results

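The caspases, the scaffold APAF1 and the inhibitors of apoptosis were followed on the 6 Affymetrix GeneChip arrays of the 1 h time point. All probe sets annotated with exactly 1 gene symbol among CASP2, CASP6, CASP8, CASP9, APAF1, XIAP, BIRC2 and BIRC3 were taken, which gave 17 of the 22215 probe sets that are not controls of the platform. They cover 7 of the 8 genes. BIRC3 was on no probe set with a single symbol in the annotation used, and no value is given for it. The cells were SH-SY5Y, a single established human neuroblastoma line, in serum-containing medium. In 3 flasks they received free bilirubin (Bf) at 140 nM, the part of the unconjugated pigment that albumin leaves unbound, and in 3 others DMSO 0.6% alone, the solvent that the Bf cells also received. Both groups were collected after 1 h and carry the replicate numbers 1 to 3, which the sources give as biological replicates. The deposited values are on a log2 scale after variance-stabilizing normalization, so that a difference of 1 stands for about 2-fold where the signal is bright and for more where it is dim. The RNA came from whole cultures, in which fewer cells of a kind and less RNA per cell cannot be told apart.

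Caspases are proteases that cut other proteins after aspartate and are made as inactive precursors. Initiator caspases are switched on by being brought together on a platform, CASP8 at death receptors of the cell surface, CASP9 on the APAF1 apoptosome after cytochrome c has left the mitochondria, and CASP2 on the PIDD1 platform, and the effector caspases then dismantle the cell. XIAP binds and blocks active caspases, while BIRC2 and BIRC3 (cIAP1 and cIAP2) are ubiquitin ligases that act mainly in signalling below the receptors of the TNF family. In neuroblastoma CASP8 is often silenced, and DNA methylation near the gene has been linked to this. These enzymes are controlled chiefly as proteins, and an array reads only their mRNA.

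Since CASP8 carried the lowest signals of the group and BIRC2 the highest, the sequences around their annotated starts are shown. Beside them are those of XIAP and CASP2, which had the largest differences between treatments on single probe sets, though none was called. Each is the first start window that RefSeq lists for the gene on GRCh38.p14, plus strand, from 250 bases before to 50 after the start. Capitals mark the dinucleotide CG, which reads the same on both strands and is the site of DNA methylation. The windows are chr2:201233213-201233512 for CASP8, chrX:123859458-123859757 for XIAP, chr7:143288101-143288400 for CASP2 and chr11:102346964-102347263 for BIRC2.
CASP8: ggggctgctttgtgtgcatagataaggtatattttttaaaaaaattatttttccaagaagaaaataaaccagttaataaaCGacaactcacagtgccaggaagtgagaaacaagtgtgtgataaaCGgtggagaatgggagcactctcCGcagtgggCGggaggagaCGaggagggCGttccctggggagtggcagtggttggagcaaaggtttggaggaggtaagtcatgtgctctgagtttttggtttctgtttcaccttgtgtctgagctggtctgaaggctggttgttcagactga
XIAP: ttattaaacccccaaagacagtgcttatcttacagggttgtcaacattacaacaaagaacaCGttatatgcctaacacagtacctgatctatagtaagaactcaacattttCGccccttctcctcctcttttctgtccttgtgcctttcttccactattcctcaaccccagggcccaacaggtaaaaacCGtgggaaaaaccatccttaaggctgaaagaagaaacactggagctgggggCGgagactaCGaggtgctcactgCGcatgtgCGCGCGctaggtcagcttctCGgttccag
CASP2: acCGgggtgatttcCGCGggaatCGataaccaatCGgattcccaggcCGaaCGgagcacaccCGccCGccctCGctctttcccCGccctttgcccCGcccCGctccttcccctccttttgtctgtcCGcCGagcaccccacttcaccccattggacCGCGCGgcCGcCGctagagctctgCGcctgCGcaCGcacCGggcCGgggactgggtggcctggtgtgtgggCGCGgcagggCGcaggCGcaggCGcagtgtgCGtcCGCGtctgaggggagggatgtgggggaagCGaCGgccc
BIRC2: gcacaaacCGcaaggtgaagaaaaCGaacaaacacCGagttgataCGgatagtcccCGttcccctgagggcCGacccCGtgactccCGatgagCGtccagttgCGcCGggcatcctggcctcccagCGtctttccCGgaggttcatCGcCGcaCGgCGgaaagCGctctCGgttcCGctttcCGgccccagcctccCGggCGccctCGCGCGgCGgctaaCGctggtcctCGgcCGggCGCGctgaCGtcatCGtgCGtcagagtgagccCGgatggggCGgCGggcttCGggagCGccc

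The CASP8 window held 6 CG dinucleotides, a number that 66.3% of the 35116 windows of all genes reach or exceed, and the further CASP8 windows held 5 and 6. The XIAP window held 10, which 56.4% reach, and its further windows 17 and 27. The first CASP2 window held 35, reached by 14.1%, and its second window 4. The BIRC2 windows held 40 and 44, reached by 7.6% and 4.2%. Of the other members, APAF1 had 42 in its window, CASP9 36 and 30, CASP6 28 and BIRC3 15, against a median of 14 over all windows. All 8 genes were found in the RefSeq table. The counts describe the reference sequence, and methylation in these cells was not measured.

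The rank of each probe set was read within each array, as the percentile of its signal among all 22215 probe sets. Signals of different probe sets depend on how well their probes bind, so the ranks order signals and not transcripts. For comparison, 46 probe sets of 32 genes that belong to unrelated tissues such as liver, pancreas, heart muscle and lymphocytes had a median percentile of 26.2 and reached at most 50.9. As a check of the labelled cell type, taken on the brightest probe set of each gene, 10 of 12 noradrenergic neuroblastoma genes lay above the median of the array, PHOX2A at a percentile of 96.6 and DBH at 98.2 among them, while TH was at 14.2 and HAND2 at 49.5. Of 10 mesenchymal genes 6 lay above the median on their brightest probe sets. They were VIM at 99.3, TWIST1 at 97.0, COL3A1 at 86.7, FN1 at 85.2, COL1A1 at 62.6 and SNAI2 at 60.1. The 4 below it were COL1A2 at 43.4, YAP1 at 30.6, CD44 at 26.6 and PRRX1 at 13.3. Over all 29 mesenchymal probe sets the median percentile was 36.0, and over all 19 noradrenergic ones 93.9.

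**Figure D1:**
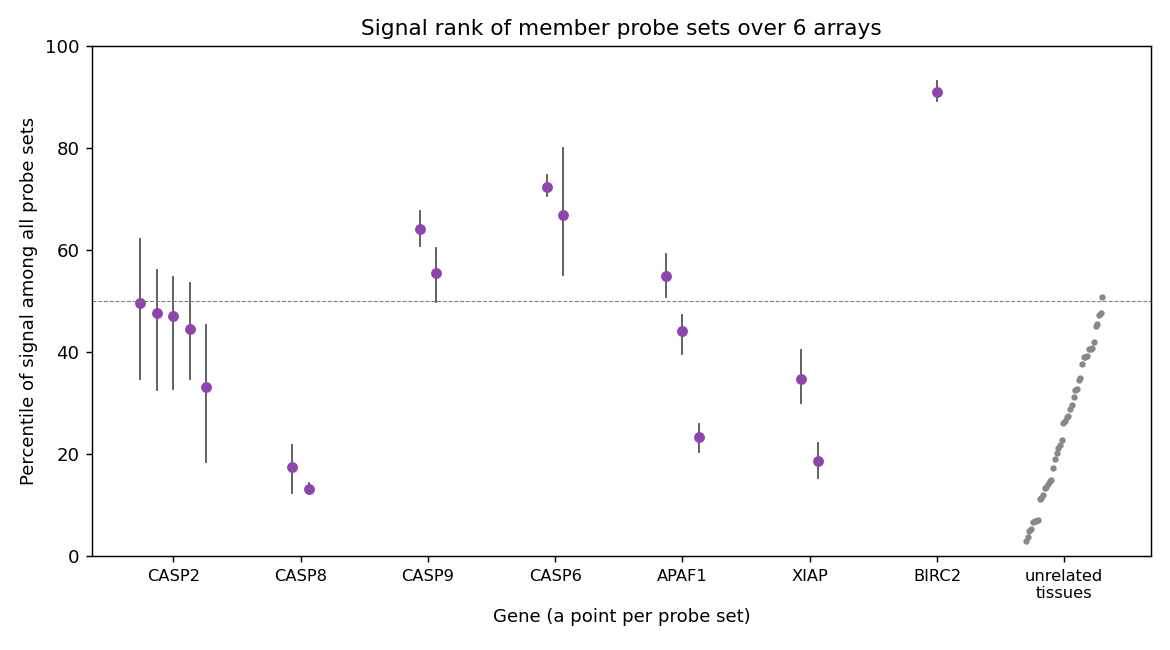
Percentile of the signal among all probe sets of an array (vertical axis) for each probe set of the member genes (horizontal axis). Points are means over the 6 arrays and lines run from the lowest to the highest array. Grey dots are the means of 46 probe sets of genes of unrelated tissues. BIRC2 lies at 91.0, above all grey dots, and the CASP8 probe sets at 17.5 and 13.1 lie inside their span.

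BIRC2 had the highest signal, at a mean percentile of 91.0 with a range over the arrays of 89.1 to 93.0. The effector caspase CASP6, which cuts nuclear lamins, followed with 72.4 and 66.8 on its 2 probe sets, and CASP9 with 64.2 and 55.5. These 5 probe sets and the brightest of APAF1, at 55.0, were above all 46 probe sets of unrelated tissues. The range of CASP6 211464_x_at (55.1 to 79.9) overlapped that of CASP9 (49.8 to 67.6 over both probe sets). The range of CASP6 209790_s_at (70.5 to 74.7) lay above that of CASP9. These neighbours were thus separated by their spread on 1 of the 2 CASP6 probe sets only.

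CASP2 lay in the middle, with mean percentiles of 49.6, 47.7, 47.0, 44.5 and 33.1 on its 5 probe sets and a range of 18.5 to 62.2 over arrays and probe sets. Of the 46 probe sets of unrelated tissues, 1, 2, 3, 5 and 15 were at or above these CASP2 means. On 208050_s_at the replicate 3 arrays were at 36.3 in Bf and 34.6 in DMSO. Replicates 1 and 2 were at 62.2 and 54.7 in Bf and at 59.1 and 50.9 in DMSO. The highest array on 34449_at was at 45.3. APAF1 spanned 55.0, 44.2 and 23.3. XIAP was lower, at 34.8 and 18.7, with 14 and 29 of the 46 probe sets of unrelated tissues at or above it.

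CASP8 was the lowest of the group. Its probe sets 213373_s_at and 207686_s_at had mean percentiles of 17.5 and 13.1, and 29 and 35 of the 46 probe sets of unrelated tissues were at or above them. On 207686_s_at the Bf arrays had 6.49, 6.50 and 6.47 log2 in replicates 1, 2 and 3, and the DMSO arrays 6.42, 6.49 and 6.35. On 213373_s_at the values were 6.60, 6.67 and 6.73 in Bf and 6.43, 6.58 and 6.65 in DMSO. The span over all 6 arrays was 0.16 and 0.30 log2. A signal inside the range of genes that these cells should lack does not tell a low CASP8 level from background. XIAP 206537_at, with a range of 15.3 to 22.2 percentiles, overlapped the 12.3 to 21.8 of CASP8 213373_s_at.

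Other genes around CASP8 had high and low signals, given here for the brightest probe set of each gene. The death receptor gene TNFRSF10B was at a percentile of 82.5, the adaptor FADD, which brings CASP8 to the receptor, at 71.2, and CFLAR, the catalytically inactive relative of CASP8, at 58.4. FAS was at 27.6, TNFSF10 (TRAIL, the ligand of TNFRSF10B) at 4.87 and CASP10, the nearest relative of CASP8, at 41.1. Over all 31 probe sets of the death receptors and platforms the median percentile was 33.2, against 60.5 over their brightest ones. Cytochrome c (CYCS) was at 98.2 and DIABLO, which is released with it and relieves the block by XIAP, at 95.01.

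**Figure D2:**
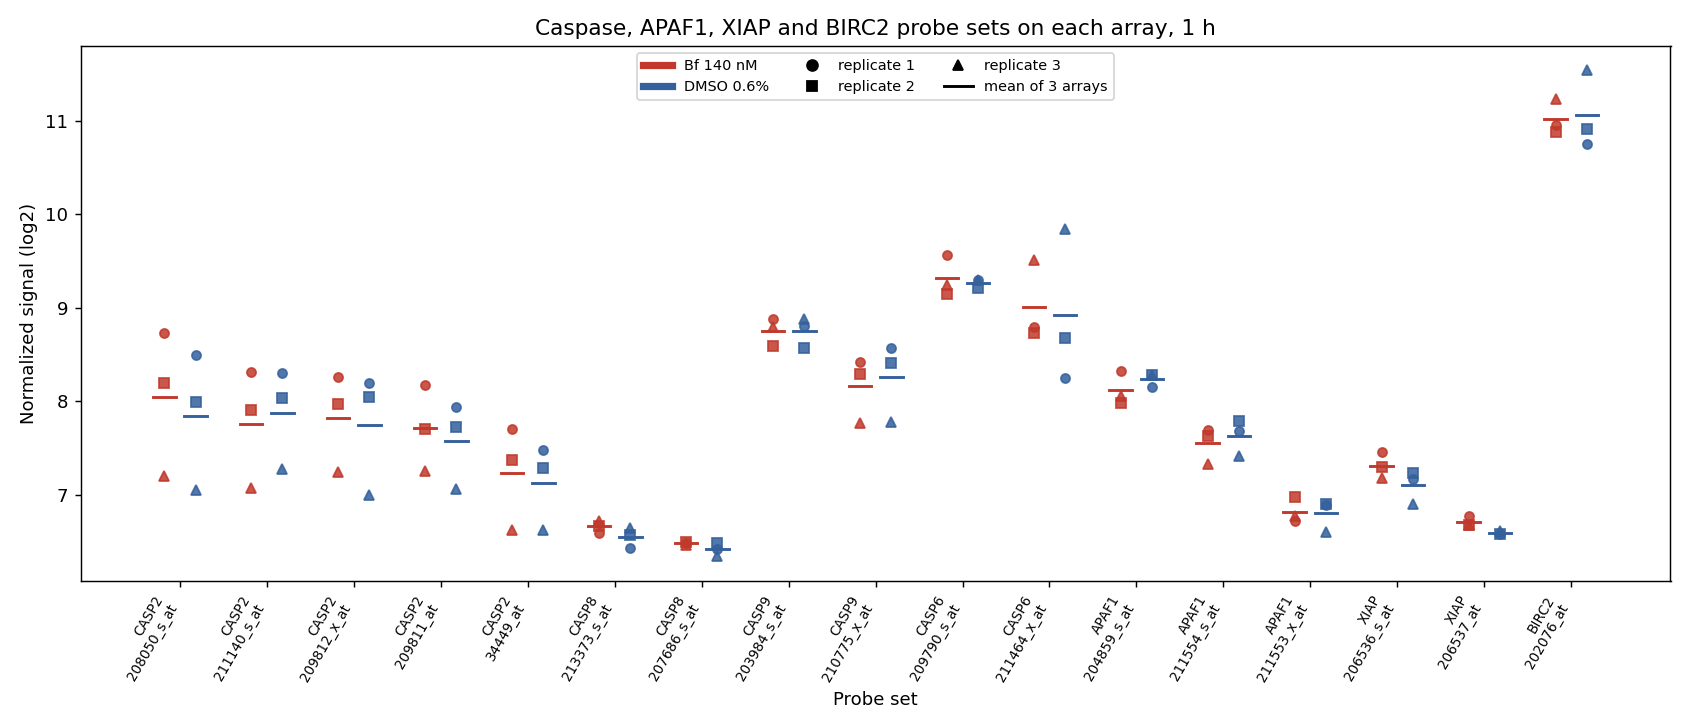
Normalized signal on the log2 scale (vertical axis) of each member probe set (horizontal axis) on every array. Red is Bf 140 nM and blue DMSO 0.6%, symbols give the replicate number and bars the mean of 3 arrays. The replicate 3 arrays are the lowest of both groups on all 5 CASP2 probe sets, and the highest on CASP6 211464_x_at and BIRC2.

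Treatment for 1 h with Bf 140 nM left no member with a called difference from DMSO 0.6%. By limma, with an adjusted p under 0.10 (about the FDR level of the study), 0 of the 17 probe sets passed upward and 0 downward, as for 0% of all probe sets in each direction. SAM, which the study used, called 0 of the 17, unpaired or paired by replicate number. At an unadjusted p under 0.05 limma gave 0 of the 17, where 0.0945% of all probe sets were higher and 0.0045% lower at that level. The member differences had a median of 0.07 log2 and lay between -0.12 for APAF1 204859_s_at and 0.21 for XIAP 206536_s_at, while the median over all probe sets was 0.01. The member median was -0.074 without the Bf array of replicate 1 and -0.080 without the DMSO array of replicate 3. These fits had no replicate block, so that the other array of that replicate number stood in 1 group only. The XIAP value was the only 1 of the 17 above 0.2 in size (5.88%), as for 1.28% of all probe sets. Of the 17, 12 were above 0, a share of 70.6% against 58.4% of all probe sets. Probe sets of 1 gene share their transcripts, so the 17 are not independent of each other. With the replicate number taken as a block, 2 of the 17 (11.8%) were higher at an unadjusted p under 0.05, against 0.941% of all probe sets, and 0 lower, against 0.275%. These were XIAP 206536_s_at and CASP2 208050_s_at, whose adjusted p was 1.00 from limma in the same fit.

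Without the block the 95% confidence interval stayed within 1 log2 on both sides for 13 of the 17 probe sets, a share of 76.5% against 95.4% of all. The 4 exceptions were CASP2 208050_s_at, 211140_s_at and 209812_x_at and CASP6 211464_x_at. It stayed within 0.5 log2 for 8 (47.1%), against 71.4% of all. With the block it stayed within 0.5 log2 for all 17, and for 99.7% of all probe sets.

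**Figure D3:**
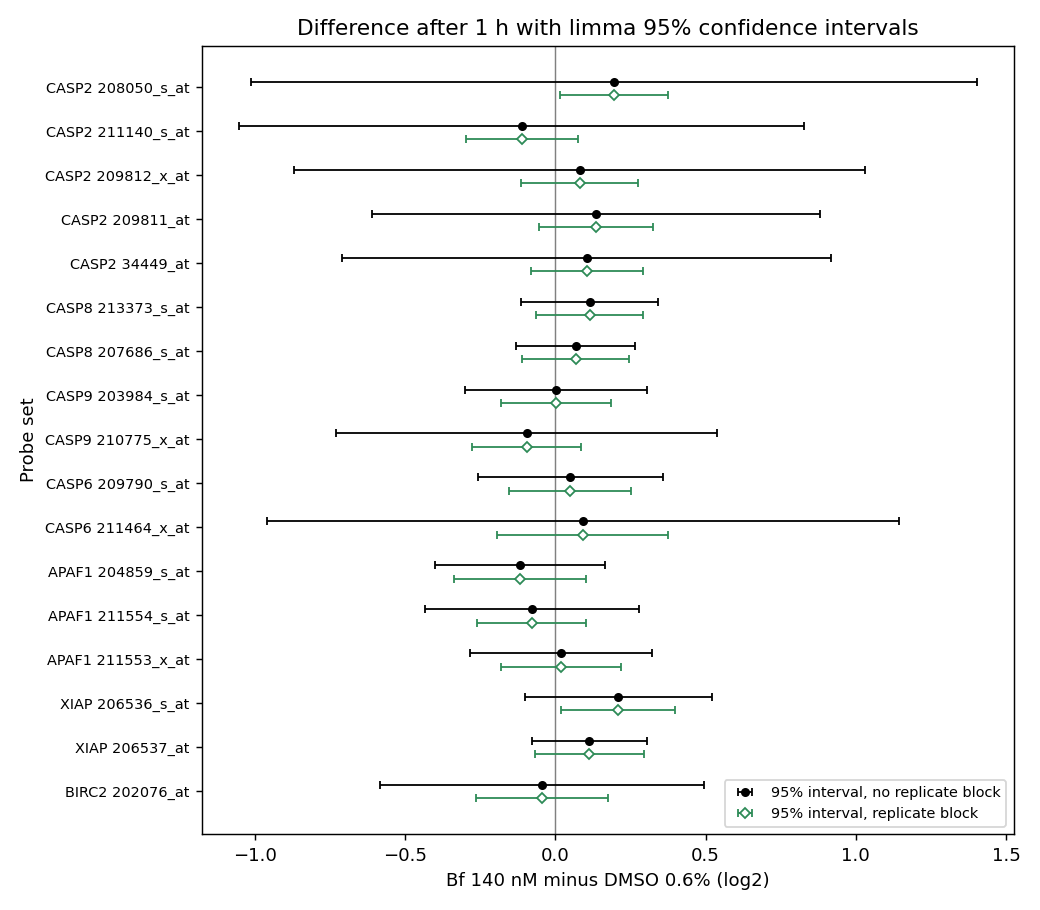
Bf 140 nM minus DMSO 0.6% on the log2 scale (horizontal axis) for each member probe set (vertical axis). Black circles carry the limma 95% confidence interval over 3 arrays per group without a replicate block, and green diamonds that with the block. Every black interval includes 0. With the block those of XIAP 206536_s_at (0.02 to 0.40) and CASP2 208050_s_at (0.02 to 0.37) do not.

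XIAP, the direct inhibitor of CASP9 and of the effector caspases, had the largest difference. On 206536_s_at the Bf arrays had 7.46, 7.30 and 7.18 log2 in replicates 1, 2 and 3, and the DMSO arrays 7.17, 7.24 and 6.90. The groups overlapped, because the DMSO array of replicate 2 was above the Bf array of replicate 3. The difference was 0.21 ± 0.13 log2 (SE, n = 3 per group), with a 95% confidence interval of -0.10 to 0.52 and an adjusted p = 1.00 from limma.

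The other XIAP probe set, 206537_at, had 6.77, 6.68 and 6.68 log2 in Bf, against 6.58, 6.59 and 6.62 in DMSO. Here the groups did not overlap, by a gap of 0.06 log2 between the lowest Bf and the highest DMSO array, and it was the 1 member probe set (5.88%) of which this held, against 2.06% of all probe sets with Bf higher. The difference was 0.11 log2 (95% confidence interval -0.08 to 0.30). XIAP differed in the same direction on both probe sets in all 3 replicate pairs, by 0.29, 0.06 and 0.28 log2 on the first and 0.19, 0.10 and 0.06 on the second. A positive difference in 3 of 3 pairs was found for 6 of the 17 member probe sets (35.3%), 2 each of CASP2, CASP8 and XIAP, and for 11.8% of all probe sets. Both XIAP probe sets had signals within the range of genes of unrelated tissues. On the brightest probe sets of the 32 such genes, 26 differences were above 0. The groups did not overlap for ALB (0.14 log2) and F2 (0.10), both positive in 3 of 3 pairs, and overlapped for the others. INS differed by 0.22 log2, positive in 3 of 3 pairs, and APOA2 by -0.12, negative in 3 of 3. Whether XIAP stands apart from such low signals was not tested.

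CASP8 was also higher in each pair, at its low signal. The differences were 0.17, 0.09 and 0.08 log2 in pairs 1, 2 and 3 on 213373_s_at and 0.07, 0.01 and 0.12 on 207686_s_at. Over the 3 arrays per group they were 0.11 (95% confidence interval -0.12 to 0.34) and 0.07 (-0.13 to 0.26), and the groups overlapped on both. The brightest probe sets of the 32 genes of unrelated tissues, several of which have signals in the same range, had a median difference of 0.05 log2, with 26 above 0.

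The BIRC2 difference was -0.04 log2 (95% confidence interval -0.58 to 0.50), with 10.96, 10.88 and 11.23 log2 in Bf and 10.75, 10.91 and 11.54 in DMSO. It had no common sign over the pairs, at 0.20, -0.03 and -0.31. The highest array of both groups was that of replicate 3.

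CASP2, an initiator caspase with a nuclear pool, was measured by 5 probe sets and differed little between treatments beside its spread between replicates. On 208050_s_at it had 8.74, 8.20 and 7.20 log2 in the Bf arrays of replicates 1, 2 and 3, and 8.50, 7.99 and 7.06 in the DMSO arrays. In both groups the array of replicate 1 was the highest and that of replicate 3 the lowest. The same order stood on all 5 CASP2 probe sets, and on 6 of the 17 member probe sets (35.3%) in all, against 15.4% of all probe sets. The difference on 208050_s_at was 0.20 log2 with a 95% confidence interval of -1.01 to 1.40, and positive in 3 of 3 pairs at 0.24, 0.20 and 0.14.

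Of the remaining CASP2 probe sets, 3 had a positive difference as well, at 0.08 log2 on 209812_x_at, 0.14 on 209811_at and 0.10 on 34449_at, and 211140_s_at had -0.11. The second CASP2 probe set above 0 in 3 of 3 pairs was 34449_at. In pair 1 all 5 probe sets were above 0, in pair 2 only 208050_s_at and 34449_at, and in pair 3 all but 211140_s_at.

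The spread of CASP2 lay largely between the replicate 3 arrays and the others. Relative to the mean of replicates 1 and 2, their CASP2 signals were shifted by -1.27 to -0.68 log2 in Bf and by -1.19 to -0.76 log2 in DMSO. Averaged over the groups the shift was -1.23 log2 on 208050_s_at, and 1.71% of all probe sets shifted as low, while it was -0.73 on 209811_at, where 6.06% did. A shift of at least 0.5 log2 downward was present in 6 of the 17 member probe sets (35.3%) against 11.3% of all, and upward in 2 (11.8%) against 7.27%. In both groups the replicate 3 array was the lowest on 9 of the 17 (52.9%), against 37.7% of all, and the highest on 3 (17.6%), against 21% of all. Both replicate 3 arrays stood apart in the series as a whole. They correlated at 0.961 to 0.977 with the other 4 arrays, which correlated at 0.993 or more among themselves, and on the actin control the 3′ probe set exceeded the 5′ one by 1.49 log2 on the Bf array and 1.90 log2 on the DMSO array, while the other 4 arrays had an excess of 0.10 to 0.50 log2. The part of this 3′ excess in the CASP2 values was not tested. Each group holds 1 replicate 3 array. Without both of them the difference on the CASP2 probe sets was 0.22 log2 on 208050_s_at, -0.06 on 211140_s_at, -0.0043 on 209812_x_at, 0.10 on 209811_at and 0.16 on 34449_at.

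**Figure D4:**
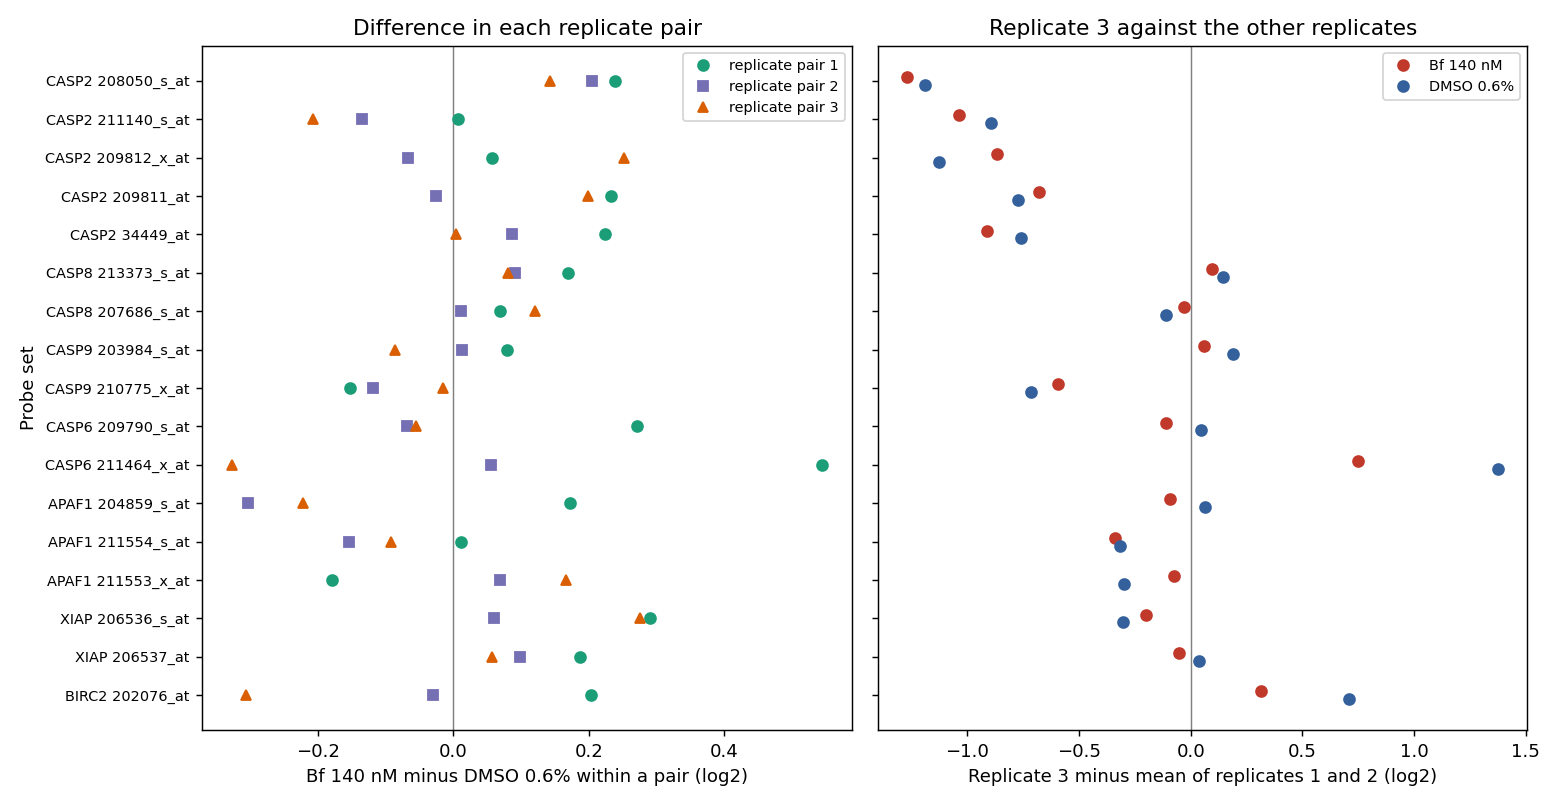
Left, Bf 140 nM minus DMSO 0.6% within each replicate pair on the log2 scale (horizontal axis) for each member probe set (vertical axis). Right, the replicate 3 array minus the mean of replicates 1 and 2 in each group, on the log2 scale. XIAP and CASP8 are above 0 in all 3 pairs on both of their probe sets, and CASP2 has shifts of -0.68 log2 and lower in both groups.

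CASP9, the initiator on the apoptosome, had discordant probe sets. On 203984_s_at it had 8.88, 8.59 and 8.79 log2 in Bf and 8.80, 8.58 and 8.88 in DMSO, a difference of 0.00 log2 (95% confidence interval -0.30 to 0.31). On 210775_x_at it had 8.42, 8.29 and 7.77 log2 in Bf and 8.58, 8.41 and 7.78 in DMSO, a difference of -0.10 log2 (-0.73 to 0.54). The second was the only member probe set that was lower in all 3 pairs (5.88% of the 17, against 5.83% of all probe sets), and its replicate 3 arrays had a shift of -0.65 log2 averaged over the groups, against 0.12 on the other CASP9 probe set. The suffix x in its name marks probe sets of which some probes can bind other transcripts. Among the members it is also carried by CASP6 211464_x_at, APAF1 211553_x_at and CASP2 209812_x_at.

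CASP6 was likewise read differently by its probe sets. On 209790_s_at the Bf arrays had 9.56, 9.14 and 9.24 log2 and the DMSO arrays 9.29, 9.21 and 9.30, so that they differed by 0.05 log2 (95% confidence interval -0.26 to 0.36). On 211464_x_at the Bf arrays had 8.80, 8.73 and 9.51 log2 and the DMSO arrays 8.25, 8.67 and 9.84, with a difference of 0.09 log2 (-0.96 to 1.14). The replicate 3 arrays were the highest on this probe set, by 0.75 log2 in Bf and 1.38 log2 in DMSO over the mean of the other replicates, and 0.752% of all probe sets shifted as high on average. Its pair differences were 0.55, 0.06 and -0.33 log2, the widest among the members.

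APAF1, which assembles into the ring that activates CASP9, had differences of -0.12 log2 on 204859_s_at (95% confidence interval -0.40 to 0.17), -0.08 on 211554_s_at (-0.43 to 0.28) and 0.02 on 211553_x_at (-0.28 to 0.32). On 204859_s_at the Bf arrays had 8.33, 7.98 and 8.06 log2, against 8.16, 8.28 and 8.28 in DMSO, so that the highest value of all belonged to a Bf array and the groups overlapped. Its first 2 probe sets were above 0 in pair 1 and below it in pairs 2 and 3, and the third had the opposite signs in each. Mean levels of its probe sets spanned 1.37 log2, the widest span among the members.

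Of the 6 genes with more than 1 probe set, 3 had all differences of 1 sign. These were CASP8, CASP6 and XIAP, and the sign was positive. The count was 5 with quantile normalization, with equal array medians and without the DMSO array of replicate 3, and the genes added there had negative differences. They were APAF1 and CASP9 with quantile normalization and with equal array medians, and APAF1 and CASP2 without the DMSO array of replicate 3. Only CASP8 and XIAP also kept the sign of both probe sets in every pair. Over the 17 probe sets the pairs 1, 2 and 3 had median differences of 0.17, 0.01 and 0.00 log2, against 0.02, -0.00 and 0.03 over all probe sets. In pair 1, 15 of the 17 were above 0, and 9 were in each of pairs 2 and 3.

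For the brightest probe set of each member, the probe set whose values over the 6 arrays, less their mean, lay nearest was looked up. For CASP2 this was CDC25C, at a mean absolute difference of 0.07 log2 where CASP2 itself deviated from its mean by 0.55 on average. For XIAP it was POLG2, for BIRC2 UTP18, for CASP9 CHRNA3, for CASP6 PAAF1, for APAF1 RSRC2 and for CASP8 SLC27A2, at 0.01 to 0.03 log2, with 6 arrays behind each. The own deviations of these members were 0.07 log2 for CASP8 to 0.23 for BIRC2. Each match was picked as the nearest among all probe sets with 1 symbol of other genes. Its closeness was not tested.

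The rest of the pathway was examined in 5 lists, of which 31 of 38 genes were on 72 probe sets with 1 symbol. Of the 72, limma called 0 in either direction at the adjusted threshold and 0 at an unadjusted p under 0.05, and SAM called 0. With the replicate block 1 was higher (1.39%) and 1 lower (1.39%) at an unadjusted p under 0.05, against 0.941% and 0.275% of all probe sets, namely SPTAN1 214925_s_at and BIRC5. The groups did not overlap in 3 with Bf higher (4.17%) and in 0 with Bf lower, where 2.06% and 0.59% of all probe sets did so. The 3 were CASP10 210708_x_at at 0.11 log2 (95% confidence interval -0.09 to 0.31), SEPTIN4 210348_at at 0.06 (-0.15 to 0.27) and SPTAN1 214925_s_at at 0.18 (-0.01 to 0.38, and 0.0019 to 0.37 with the block). They lay at mean percentiles of 40.0, 21.7 and 20.2, within the range of genes of unrelated tissues. On the brightest probe sets of CASP10, SEPTIN4 and SPTAN1 the groups overlapped, with differences of -0.01, 0.03 and 0.04 log2. Differences over the 72 ran from -0.19 to 0.18 log2 around a median of 0.02.

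The lists were then compared on the brightest probe set of each gene alone, and medians and smallest p-values refer to these. Among 4 other caspases the median difference was -0.04 log2, and the smallest p belonged to CASP1, the inflammatory caspase, at -0.07. Among 7 other inhibitors of apoptosis and their antagonists the median was 0.01, and the smallest p belonged to BIRC5 (survivin, an inhibitor of apoptosis family member that also serves in cell division). BIRC5 had 12.03, 11.40 and 11.42 log2 in Bf, against 12.26, 11.67 and 11.50 in DMSO, which overlap. Its difference was -0.19 log2 (95% confidence interval -0.82 to 0.43), negative in 3 of 3 pairs, and -0.38 to -0.01 with the replicate block.

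Among 3 proteins that mitochondria release, ENDOG, a nuclease, had the smallest p at 0.06 log2, and the median was 0.00. Among 10 genes of death receptors and platforms it was TNFRSF1A, the main TNF receptor, at 0.14 (95% confidence interval -0.13 to 0.41), with a median of -0.02. Among the brightest probe sets of 7 substrates of the effector caspases it was LMNA, the lamin that CASP6 cuts, at 0.11 (-0.26 to 0.48), with a median of 0.04. The replicate 3 arrays were low for some of these substrates as well, with shifts, averaged over the groups, of -1.40 log2 for the spectrin SPTAN1 and -1.15 log2 for ACIN1.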

How the data were processed

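Total RNA of each flask was labelled and hybridized to 1 array. The authors read cell intensities with GCOS and normalized them with VSN in Bioconductor (R 2.5.0, per the labels), and the deposited values are on the log2 scale. The file does not state the base of the logarithm or which arrays were normalized together, and the base rests on the method. The authors' filter on detection calls is not in the deposited table, which lists all probe sets. No filter was applied here, and 62 platform controls were left out. Of the 22215 others, 19064 had 1 symbol, 1043 several and 2108 none in GEO's platform annotation.

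Groups were compared by limma 3.58.1 in R 4.3.3, two-sided, with Benjamini-Hochberg adjustment over all probe sets and an adjusted p under 0.10. The script was tested on simulated data. SAM was rewritten from its description, with all 20 permutations of the labels, or all 8 sign changes when paired. Deviations from the group means correlated between the arrays of a replicate number at 0.72, 0.78 and 0.88. Deviations of arrays with different numbers were not compared, and both replicate 3 arrays stood apart. These values alone therefore cannot show that the numbers pair the samples. The methods name no pairing, and the replicate block was therefore kept as an alternative. Intervals given gene by gene are without the block unless stated, so that they include the spread between replicate numbers. The others were quantile normalization, equal array medians, filters on level, trended and robust variances, array weights, other thresholds and leaving out arrays. The number of arrays limits the precision.

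Named genes were all members, in each pathway list the gene with the smallest p on its brightest probe set, those with groups that did not overlap, and for likeness the nearest other gene. Members and lists were chosen with earlier results of these data known. SPTAN1 and ACIN1 (low on the replicate 3 arrays), the genes around CASP8 and the cell type markers given by name were chosen after their values were seen.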

Additional observations from a re-analysis of the deposited data

How the results depend on the processing

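No member and no pathway probe set passed an adjusted p under 0.10 in limma under any alternative, at thresholds of 0.05 and 0.20, or by SAM, and the adjusted p of the members lay between 0.97 and 1.00. Of all 22215 probe sets, 0 were called in the main fit, with the replicate block and by SAM. The absence of calls is therefore not particular to these genes. The share of all probe sets called under the other alternatives is not given. The filters on level left 7 (median) and 13 (lower quartile) of the 17 to be tested. With the replicate block, 2 members passed an unadjusted p under 0.05, against 0 without it, and it changed no adjusted call. The count of genes whose probe sets all share a sign, 3, became 5 with quantile normalization and with equal array medians, and 3 to 5 when arrays were left out singly. The member median of 0.07 log2 ranged from -0.080 (without DMSO 0.6% replicate 3) to 0.087, and was -0.074 without Bf 140 nM replicate 1.

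Both CASP8 and both XIAP probe sets and APAF1 204859_s_at, 5 of 17, kept their sign in each of the 13 to 15 settings in which they were tested, though not their size. Some of these settings, namely the replicate block, the filters on level and the trended and robust variances, leave the difference itself unchanged. The sign was fixed in advance there, and only the others could turn it. XIAP 206536_s_at (0.21) was 0.12 with array weights, 0.13 without Bf 140 nM replicate 1 and 0.11 without DMSO 0.6% replicate 3, and XIAP 206537_at lay between 0.083 and 0.14. CASP8 207686_s_at lay between 0.015 (array weights) and 0.10, with 0.030 without DMSO 0.6% replicate 3, CASP8 213373_s_at between 0.054 (without DMSO 0.6% replicate 1) and 0.16, and APAF1 204859_s_at between -0.22 (without Bf 140 nM replicate 1) and -0.046 (without Bf 140 nM replicate 2). Signs turned for CASP2 209812_x_at (-0.067 with array weights, -0.0043 without both replicate 3 arrays), CASP9 203984_s_at (-0.0019 with quantile normalization, -0.017 with equal medians), APAF1 211553_x_at (-0.0041, -0.00069, -0.043 with array weights and -0.055 without both replicate 3 arrays) and BIRC2 (0.053 with array weights, 0.087 without both replicate 3 arrays). Leaving out both was chosen after seeing the data. The fits with arrays left out singly had no replicate block. Each left 1 replicate number in 1 group only, so that the shift of that replicate entered the difference. In these fits the difference ranged from -0.20 to 0.62 on CASP2 208050_s_at, -0.41 to 0.23 on 211140_s_at, -0.29 to 0.37 on 209812_x_at, -0.12 to 0.36 on 209811_at and -0.15 to 0.41 on 34449_at. It ranged from -0.087 to 0.086 on CASP9 203984_s_at, -0.33 to 0.10 on 210775_x_at, -0.074 to 0.14 on CASP6 209790_s_at, -0.24 to 0.55 on 211464_x_at, -0.18 to 0.035 on APAF1 211554_s_at, -0.080 to 0.070 on 211553_x_at and -0.20 to 0.19 on BIRC2. The cause of the replicate shifts, and of the signs that turned in the other settings, was not tested. Of the 17 probe sets, 11 lie on average below the top one of unrelated tissues (50.9), namely all of CASP8, XIAP and CASP2 and APAF1 211554_s_at and 211553_x_at.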
